A study of Homo sapiens with 6 samples.

Results

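The growth factor receptors MET and MST1R, the TAM receptors AXL, TYRO3 and MERTK, and the ligands HGF, GAS6 and PROS1 were followed in the triple-negative breast cancer line Hs578T after knockdown of CCN3. The 8 genes were taken by symbol from the deposited counts of 46427 genes. The table holds 3 libraries from cells with a control shRNA (shCTRL) and 3 from cells with a CCN3 shRNA (shCCN3), which the study describes as independent biological replicates. Both cell lines carry the retroviral pSUPER vector with its puromycin resistance gene, were selected with puromycin, and were grown in DMEM with fetal bovine serum, so that the shRNA is the only named difference. Only 1 CCN3 shRNA was sequenced, in stably selected cells that the methods call clones without giving their number, so an effect of its sequence or of the selection cannot be told apart from an effect of lower CCN3. Levels below are CPM, counts scaled to the library total with TMM factors, and bulk levels cannot tell fewer expressing cells from less RNA per cell.

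MET is a receptor tyrosine kinase that drives cell scattering, migration and survival when hepatocyte growth factor (HGF) binds it, and MST1R (also called RON) is its closest relative and binds the HGF-like protein MST1. AXL, TYRO3 and MERTK form the TAM family, whose ligands GAS6 and protein S (PROS1) are vitamin K-dependent proteins that bridge the receptor to phosphatidylserine on dying cells or debris. AXL is known for its high expression in mesenchymal breast cancer cells, and both AXL and MET are known as routes around EGFR inhibition.

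The promoters of MET, PROS1 and AXL are shown because the mRNA of MET and PROS1 fell while AXL, the most abundant receptor of the group, did not pass the test. Each run is the 250 bases upstream of the annotated start, from RefSeq on GRCh38.p14, written along the gene's own strand. Capitals mark the GC box GGGCGG on either strand, the textbook binding site of SP1 and SP3. The MET window is chr7:116671946-116672195 on the plus strand, the PROS1 window is chr3:93973897-93974146 on the minus strand, and the AXL window is chr19:41218973-41219222 on the plus strand.
MET: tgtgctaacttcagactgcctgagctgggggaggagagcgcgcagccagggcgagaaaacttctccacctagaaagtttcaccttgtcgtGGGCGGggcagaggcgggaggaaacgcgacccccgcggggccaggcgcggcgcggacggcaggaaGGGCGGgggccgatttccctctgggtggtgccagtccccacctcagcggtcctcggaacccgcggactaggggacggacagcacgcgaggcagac
PROS1: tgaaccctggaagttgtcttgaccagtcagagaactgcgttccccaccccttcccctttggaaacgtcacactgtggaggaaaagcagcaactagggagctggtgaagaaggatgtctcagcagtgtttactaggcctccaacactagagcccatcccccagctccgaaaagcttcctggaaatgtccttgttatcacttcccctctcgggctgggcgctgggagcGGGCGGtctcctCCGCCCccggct
AXL: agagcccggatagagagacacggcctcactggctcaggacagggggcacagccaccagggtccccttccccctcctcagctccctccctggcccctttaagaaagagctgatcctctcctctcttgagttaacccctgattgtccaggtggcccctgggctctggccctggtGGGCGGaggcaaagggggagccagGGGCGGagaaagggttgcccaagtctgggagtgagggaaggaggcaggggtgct
Each of the 3 windows held 2 GC boxes, a motif present in 42.6% of 35116 promoter windows of this length. None of the 3 held the AP-1 site TGACTCA (4.2% of windows), the E-box CACGTG (6.34%), the M-box core CATGTG (9.42%), the TEAD site GGAATG (11.9%) or the TATA box TATAAA (10.7%), searched on both strands. CATGTG and GGAATG each occurred 1 time upstream of the second annotated start of AXL. The GC boxes therefore stood upstream of genes that fell and of a gene that was not called.

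The libraries held 56159110 to 68393177 counts, so that 3 counts correspond to 0.0435 to 0.0540 CPM, which covers counting error only. CCN3, the targeted gene, was at 103, 102 and 98.1 CPM in the shCTRL libraries and at 47.4, 47.2 and 46.5 CPM in the shCCN3 libraries. It fell by 1.10 on the log2 scale (standard error, SE, 0.055, adjusted p = 1.34e-06, edgeR's quasi-likelihood test, Benjamini-Hochberg over 17419 genes). Replicate 2 of shCCN3 stood apart from the other two shCCN3 libraries, by a chi-square per degree of freedom of 37.6 and 46.0 against 9.90 between those. The 6 mesenchymal markers (VIM, FN1, SPARC, ZEB1, CD44 and CAV1) summed to 13737 to 13866 CPM in shCTRL and 12723 to 12915 CPM in shCCN3 libraries, with CAV1 and CD44 called lower. The 7 luminal markers summed to 76.0 to 86.8 and 81.4 to 84.2 CPM, nearly all of it ERBB2, with none called and with EPCAM and CDH1 near 0. Of the 5 endothelial markers, PECAM1 was at 3.57 CPM in shCTRL and 3.43 CPM in shCCN3 libraries. It was the only one tested and was not called. VWF and TEK had a few counts in some libraries, and CDH5 and CLDN5 were listed at 0.

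Of the 8 genes, 3 were lower in shCCN3 cells at an adjusted p under 0.05 (MET, PROS1 and MERTK), none was higher, 4 were not called (AXL, TYRO3, GAS6 and MST1R), and HGF had no counts to test. Of all genes tested, 33.4% were called, 17.3% as lower and 16.2% as higher, so a call in itself was common in this comparison. Over all genes tested, the log2 fold change had a median of 0.01. MERTK passed the filter on low counts only through the shCTRL libraries, so the count of 3 describes these genes and supports nothing further. Without shCCN3 replicate 2 the same fit called 3 of the 8 genes and 40.5% of all genes. The number was 2, without MERTK, with DESeq2, with either other filter on low counts, and when any shCTRL library or shCCN3 replicate 1 was left out.

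MET mRNA was at 197, 194 and 173 CPM in the shCTRL libraries and at 148, 118 and 148 CPM in the shCCN3 libraries. Each shCCN3 library lay below each shCTRL library, and the lowest value was that of shCCN3 replicate 2. The means were 188 ± 13.3 CPM and 138 ± 17.3 CPM (SD, n = 3 each), and the fitted level fell by 26.7%. The log2 fold change was -0.45 (SE 0.096, 95% interval -0.66 to -0.23, adjusted p = 0.00608, edgeR's quasi-likelihood test), and it was -0.34 (adjusted p = 0.00192) without shCCN3 replicate 2. By exact permutation over libraries p was 0.1 (two-sided), the smallest value that 3 libraries against 3 can give.

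MST1R, the MET relative, was barely detected. Its counts were 63, 39 and 51 in the shCTRL libraries and 79, 30 and 68 in the shCCN3 libraries, equal to 0.766 ± 0.148 CPM and 0.916 ± 0.329 CPM (SD, n = 3 each). The groups overlapped, and the log2 fold change of 0.26 had a 95% interval from -0.43 to 0.96 (adjusted p = 0.557, edgeR's quasi-likelihood test). At this depth neither a rise nor a fall of that size could be told from the spread.

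AXL was by far the most abundant of the receptors. Its mRNA was at 1111, 1110 and 1056 CPM in the shCTRL libraries and at 1115, 1063 and 1183 CPM in the shCCN3 libraries. The groups overlapped, with 1 shCCN3 library inside the shCTRL range and the other two above it. The means were 1092 ± 31.2 CPM and 1120 ± 60.1 CPM (SD, n = 3 each), and the log2 fold change was 0.04 (SE 0.058, adjusted p = 0.680, edgeR's quasi-likelihood test). Its 95% interval, -0.10 to 0.17, lies above the whole interval of MET.

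TYRO3 was the second TAM receptor, at 36.3, 38.2 and 36.6 CPM in the shCTRL libraries and 36.5, 35.5 and 35.0 CPM in the shCCN3 libraries. One shCCN3 library reached into the shCTRL range. The log2 fold change was -0.06 (95% interval -0.19 to 0.08, adjusted p = 0.535, edgeR's quasi-likelihood test).

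MERTK, the TAM receptor known from phagocytes, was near the limit of detection. It had 31, 52 and 25 counts in the shCTRL libraries and 0, 0 and 14 counts in the shCCN3 libraries, or 0.550 ± 0.243 CPM and 0.0729 ± 0.126 CPM (SD, n = 3 each). The groups did not overlap, and the shCCN3 mean was 7.54 times lower and came from replicate 3 alone. The fitted log2 fold change was -2.86 with a wide 95% interval from -4.90 to -0.82 (adjusted p = 0.0368, edgeR's quasi-likelihood test). The call was lost with DESeq2 (adjusted p = 0.250), without a filter on low counts (0.0529), and when any shCTRL library or shCCN3 replicate 1 was left out (0.0517 to 0.143). The 6 macrophage markers summed to 95.8 to 108 CPM in shCTRL and 60.4 to 62.4 CPM in shCCN3 libraries, nearly all of it CD68, which was called lower. CSF1R was called higher. CD14 had 17 to 49 counts per library and PTPRC 0 to 13, and neither was called. ITGAM and AIF1 were listed at 0 counts in all 6 libraries. Without shCCN3 replicate 3 the shCCN3 group was at 0 counts, at least 10.2-fold lower than shCTRL when 3 counts per library are taken as the limit.

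**Figure D1:**
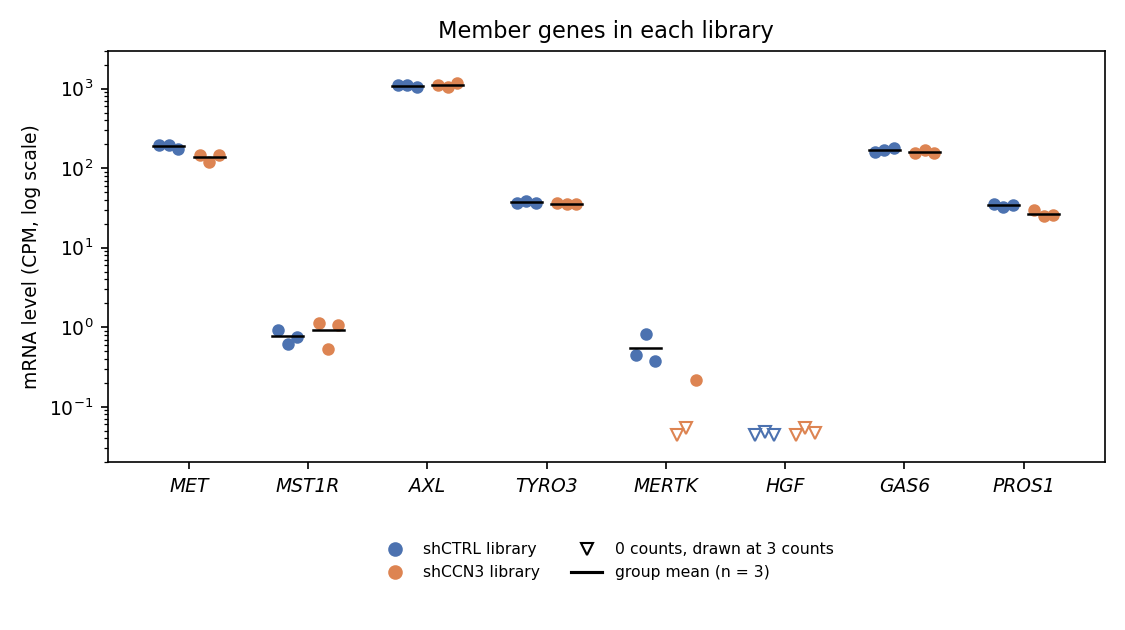
mRNA level of the 8 genes in each library (CPM on a log axis), with shCTRL libraries in blue, shCCN3 libraries in orange and black bars for group means where all 3 libraries had counts. Open triangles are libraries at 0 counts, drawn at the level of 3 counts. AXL sits at the top in both groups, and HGF has no counts in any library. The 2 groups separate for MET, for PROS1 and, near the limit of detection, for MERTK.

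HGF, the ligand of MET, was listed at 0 counts in all 6 libraries, which allows up to 0.0435 to 0.0540 CPM per library. A 0 in this table is read only as listed at 0, because INSR, the insulin receptor that most cells use, had 0 to 6 counts per library. MST1, the ligand of MST1R, had 104, 170 and 163 counts in the shCTRL libraries and 104, 99 and 84 in the shCCN3 libraries. Its log2 fold change was -0.53 (95% interval -1.06 to 0.00, adjusted p = 0.119, edgeR's quasi-likelihood test), and the groups overlapped in 1 library of each. Without shCTRL replicate 1, the shCTRL library in the overlap, it was -0.74 (adjusted p = 0.0253). MST1 has near copies, of which MST1P2 had 44 to 122 counts and MST1L 13 to 26 counts per library, so its count is uncertain.

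GAS6, which binds all 3 TAM receptors, was at 159, 167 and 177 CPM in the shCTRL libraries and at 155, 172 and 154 CPM in the shCCN3 libraries. The groups overlapped. The means were 168 ± 9.17 CPM and 160 ± 9.90 CPM (SD, n = 3 each), and the log2 fold change was -0.06 (95% interval -0.22 to 0.09, adjusted p = 0.513, edgeR's quasi-likelihood test).

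PROS1, protein S, the anticoagulant cofactor that also binds TYRO3 and MERTK, was at 35.3, 32.6 and 34.6 CPM in the shCTRL libraries and at 29.5, 24.8 and 25.6 CPM in the shCCN3 libraries. Every shCCN3 library lay below every shCTRL library. The means were 34.1 ± 1.40 CPM and 26.6 ± 2.49 CPM (SD, n = 3 each), and the fitted level fell by 21.9%. The log2 fold change was -0.36 (SE 0.082, 95% interval -0.54 to -0.17, adjusted p = 0.00841, edgeR's quasi-likelihood test), and it was -0.31 (adjusted p = 0.0102) without shCCN3 replicate 2. By exact permutation p was again 0.1 (two-sided).

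Levels of different genes were compared per length, as RPKM, which is CPM divided by the exon length of the gene in kilobases. In shCTRL cells AXL came first with 212 RPKM, followed by GAS6 with 27.9, MET with 26.7, PROS1 with 6.27, TYRO3 with 3.38, MST1R with 0.146 and MERTK with 0.117 RPKM. GAS6 and MET overlapped between libraries there, and so did MST1R and MERTK, while the other neighbours in this order did not. In shCCN3 cells MET, at 19.6 RPKM, lay below GAS6, at 26.7 RPKM, in every library. The place of GAS6 rests on the length used, since its exons together span 6006 bases and its longest transcript 2646 bases, and with the shorter length GAS6 lies above MET in every library of both groups.

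AXL made up 98.4% of the summed RPKM of the 3 TAM receptors in shCTRL cells and 98.5% in shCCN3 cells. The difference of 0.139 percentage points separated the groups (exact permutation p = 0.1, two-sided), and TYRO3 made up most of the remainder in both. GAS6 was 81.6% ± 1.15 of the summed RPKM of GAS6 and PROS1 in shCTRL cells and 84.5% ± 1.80 in shCCN3 cells (SD, n = 3 each). The shCCN3 shares of 82.7%, 86.3% and 84.5% all lay above the highest shCTRL share of 82.3% (exact permutation p = 0.1, two-sided). The log2 ratio of the 2 ligands to the 3 TAM receptors was -2.66 and -2.80 and overlapped between the groups (exact permutation p = 0.3, two-sided). This ratio and the share of GAS6 also rest on the length used. The exons of PROS1 span 5444 bases and its longest transcript 3583, so with transcript lengths GAS6 would gain more than PROS1. The log2 ratio of AXL to MET rose from 2.99 ± 0.062 to 3.48 ± 0.131 (SD, n = 3 each), with no overlap (exact permutation p = 0.1, two-sided).

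MET and PROS1 lie in different surroundings, and the fold changes of their neighbours differed. MET is at 116672196 to 116798377 on chromosome 7 (GRCh38.p14). Across the 821 tested genes of chromosome 7 the median was -0.43, and 84.9% of them were below 0. The 24 tested genes nearest to MET, which reach 5.37 Mb from it, had a median of -0.47, and 21 of the 24 were below 0. Next to MET, CAPZA2, which encodes an actin-capping subunit, had a log2 fold change of -0.46, ST7 had -0.47, and CAV1, the main coat protein of caveolae, had -0.65. CAV2 beside it had -0.22, and TES, which encodes a focal adhesion protein, had 0.58.

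The log2 fold change of MET less the median of its chromosome was -0.02, and less that of its 24 neighbours it was 0.02. Of the genes tested on chromosome 7, 47.1% had a lower log2 fold change than MET. Within single libraries, the log2 level of MET relative to its neighbours was 0.00, 0.08 and -0.10 in the shCTRL libraries and 0.17, -0.25 and 0.06 in the shCCN3 libraries, both centred on their mean over the 6 libraries. The groups overlapped fully on this scale, with a difference of -0.01 (exact permutation p = 1.0, two-sided). MET thus fell relative to all genes and did not differ detectably from the genes around it. What moved chromosome 7 was not tested. HGF lies on the same chromosome, and its 24 nearest tested genes had a median of -0.43.

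PROS1 is at 93873051 to 93973896 on chromosome 3, with a median of 0.03 over its 1014 tested genes. Its 24 nearest tested genes had a median of 0.07, and 9 of the 24 were below 0. NSUN3, which lies close to PROS1, had a log2 fold change of -0.03 and was not called. Less its neighbours PROS1 changed by -0.43, and within libraries the shCTRL values of 0.17, 0.17 and 0.32 all lay above the shCCN3 values of -0.08, -0.19 and -0.35 (exact permutation p = 0.1, two-sided). The fall of PROS1 was therefore as large within its neighbourhood as across all genes. For MERTK on chromosome 2 the neighbours' median was 0.01, and for AXL on chromosome 19, TYRO3 on chromosome 15 and GAS6 on chromosome 13 it was -0.10, 0.07 and 0.03.

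**Figure D2:**
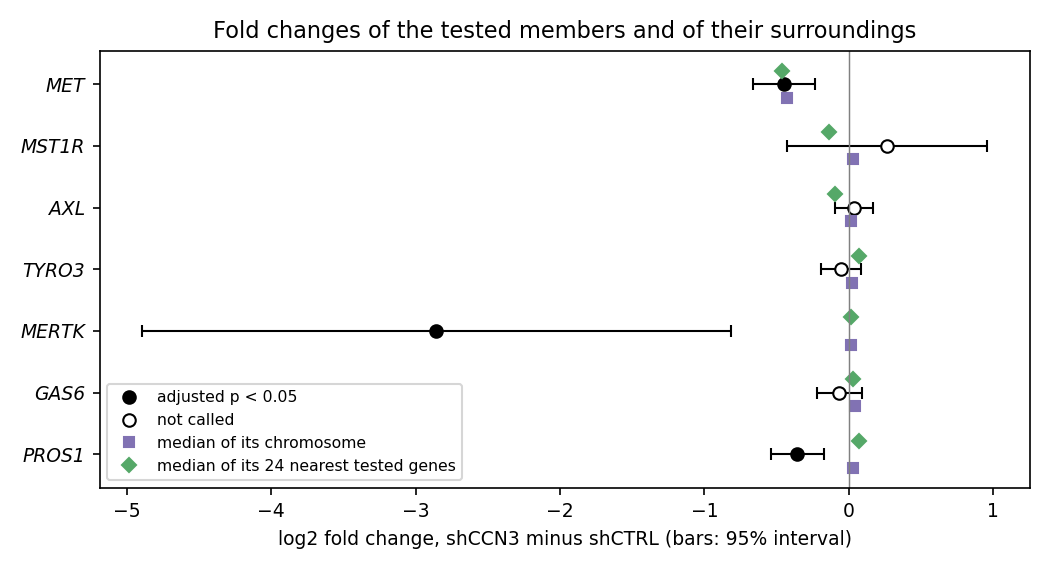
log2 fold change (shCCN3 minus shCTRL) of the 7 tested genes with 95% intervals, filled where the adjusted p was under 0.05. Squares are the median of the gene's chromosome and diamonds the median of its 24 nearest tested genes. For MET both medians, -0.43 and -0.47, fall on the gene's own value of -0.45, whereas for PROS1 they lie at 0.03 and 0.07, above its interval.

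**Figure D3:**
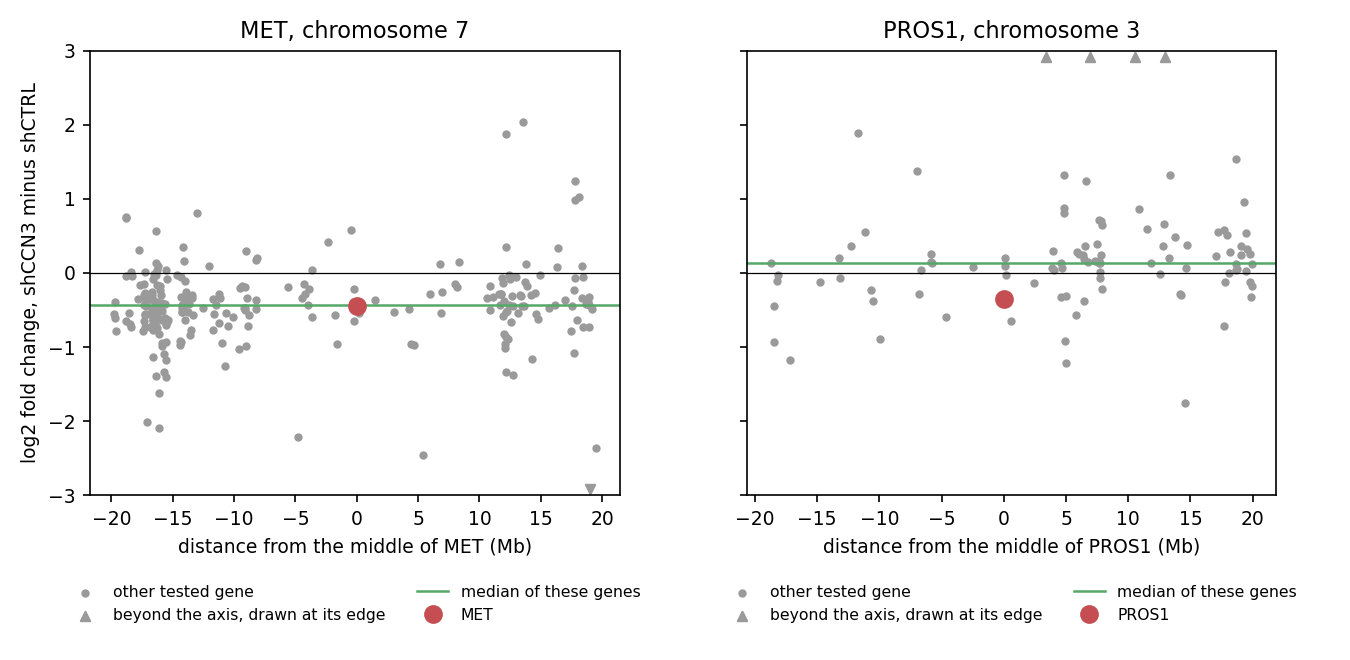
log2 fold change of every tested gene within 20 Mb of MET and of PROS1, against distance from the gene's middle in Mb, with the median as a green line. Around MET 221 of 253 genes are below 0 and the median is -0.44, and around PROS1 33 of 102 genes are below 0 and the median is 0.14.

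The genes whose profiles over the 6 libraries were most like that of MET, by the root mean square difference of centred log2 CPM among 13633 genes, were FIGNL1, ATP2B4 and BNC2, with differences of 0.0217, 0.0241 and 0.0272. FIGNL1 lies on chromosome 7 as well, and the others on chromosomes 1 and 9. For PROS1 they were ABHD15, F2RL2 and NTAN1, with differences of 0.0157, 0.0319 and 0.0330. The 6 points share the 2 groups and the library depths, so these are descriptions only.

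Of 11 MET co-receptors, proteins that work with MET at the cell surface, all were tested, 7 were lower and 1 was higher in shCCN3 cells, with a median log2 fold change of -0.41. Over all genes tested, 17.3% were lower and 16.2% higher, with a median of 0.01. None of the 11 lies on chromosome 7. The plexins PLXNB1 and PLXNB2 and the integrin subunit ITGB1 were not called. ITGB4, the β4 integrin that can bind MET, fell from 7.22 ± 0.491 CPM to 2.86 ± 0.323 CPM (log2 fold change -1.33, adjusted p = 4.47e-05, edgeR's quasi-likelihood test). MUC20, a mucin that binds the MET docking site, fell from 2.29 ± 0.312 CPM to 0.584 ± 0.189 CPM (-1.96, adjusted p = 0.000355). The other lower genes were ITGA6, the partner of ITGB4, the neuropilins NRP1 and NRP2, the plexin PLXNB3 and CD44, at -0.75 to -0.25. SDC1, a heparan sulphate proteoglycan that can present HGF, rose from 153 ± 3.19 CPM to 298 ± 14.2 CPM (0.95, adjusted p = 4.16e-06).

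Of 11 genes for MST1 and for proteases and inhibitors that act on the HGF and MST1 precursors, 5 could be tested and 2 were called. The share called was 40.0%, against 33.4% of all genes tested. PLAU, the urokinase that can cleave pro-HGF, fell from 1165 ± 20.1 CPM to 501 ± 19.2 CPM (log2 fold change -1.22, adjusted p = 6.70e-07, edgeR's quasi-likelihood test). SERPINA5, an inhibitor of these proteases, had 0 counts in every shCTRL library and 20, 27 and 23 counts in the shCCN3 libraries. It passed the filter on low counts only through the shCCN3 libraries, so its call supports nothing further. HGFAC, the HGF activator, and SPINT2, an inhibitor of it, were tested and not called, and HPN, TMPRSS13, KLK4 and KLK5 were listed at 0.

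Inside the cell, 4 of 17 adaptors and effectors were higher and none was lower, a share called of 23.5% against 33.4% of all genes tested. GAB1, the docking protein that MET binds directly, rose from 4.69 ± 0.623 CPM to 7.77 ± 0.761 CPM (log2 fold change 0.73, adjusted p = 0.00223, edgeR's quasi-likelihood test). PIK3R2, a regulatory subunit of PI3-kinase, rose from 162 ± 4.15 CPM to 204 ± 9.25 CPM (0.33, adjusted p = 0.00207), and SRC and NCK2 were the others. Without shCCN3 replicate 2 the number called was 9, in a fit that called 40.5% of all genes. GRB2, SHC1, PTPN11, STAT3 and PLCG1 were among the 13 not called.

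Of 16 genes that end or limit signalling, 15 were tested, 4 were higher and 3 lower, a share called of 46.7% against 33.4% of all genes tested. LRIG1, a membrane protein that lowers MET and EGFR at the surface, rose from 26.0 ± 1.95 CPM to 67.0 ± 7.05 CPM (log2 fold change 1.37, adjusted p = 7.27e-06, edgeR's quasi-likelihood test). PTPRJ, a phosphatase that acts on MET, rose by 0.36 (adjusted p = 0.00529). The cytokine signalling inhibitors SOCS1 and SOCS3 had log2 fold changes of -0.95 and -0.30 (adjusted p = 0.00506 and 0.00488). CBL, the ubiquitin ligase of both receptor families, and ADAM10 and ADAM17, the sheddases of AXL, MERTK and MET, had values of 0.03, 0.12 and 0.02 and were not called.

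GAS6 and PROS1 need vitamin K-dependent carboxylation and exposed phosphatidylserine to act. Of 12 genes for these steps and for further ligands, 9 were tested, 3 were higher and 2 lower. The called genes made up 55.6% of those tested, against 33.4% over all genes. GGCX, the carboxylase itself, rose from 55.9 ± 2.33 CPM to 91.0 ± 1.42 CPM (log2 fold change 0.70, adjusted p = 2.45e-05, edgeR's quasi-likelihood test). VKORC1L1, which recycles vitamin K, fell from 41.0 ± 1.02 CPM to 29.3 ± 0.836 CPM (-0.48, adjusted p = 0.000345), lies on chromosome 7, and was -0.05 less the median of that chromosome. VKORC1 was not called. LGALS3, reported as a further MERTK ligand, fell from 68.9 ± 4.88 CPM to 41.8 ± 4.61 CPM (-0.72, adjusted p = 0.000269), and TUB, another of these, rose by 0.52 (adjusted p = 0.00384). ANO6, a scramblase that exposes phosphatidylserine, was the other gene that was higher.

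Of 11 genes of the engulfment machinery 9 were tested, 1 was higher and 3 were lower. That is 44.4% called, against 33.4% of all genes tested. ITGAV, the αv integrin, rose from 33.7 ± 4.55 CPM to 58.8 ± 9.15 CPM (log2 fold change 0.80, adjusted p = 0.00125, edgeR's quasi-likelihood test). LRP1, a receptor for engulfment, fell from 209 ± 8.26 CPM to 139 ± 24 CPM (-0.59, adjusted p = 0.00311). ELMO1 and RAC1, which remodel actin during engulfment, had -0.85 and -0.28 and both lie on chromosome 7. Less the median of that chromosome they were at -0.42 and 0.15.

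Of 10 factors known from work on the promoters of these receptors, 2 were higher and 2 lower. This share of 40.0% was near the 33.4% called among all genes tested. SP1 and SP3, whose textbook site is the GC box shown above, had log2 fold changes of 0.19 and 0.13 and were not called. ETS1 rose from 17.4 ± 1.57 CPM to 32 ± 2.95 CPM (0.88, adjusted p = 0.000120, edgeR's quasi-likelihood test). The AP-1 subunits FOSL1 and JUN had -0.48 and -0.33 (adjusted p = 0.000499 and 0.00209). YAP1 had 0.36 (adjusted p = 0.0277), a call that was lost in 4 of the 6 fits without 1 library (highest adjusted p = 0.0974).

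**Figure D4:**
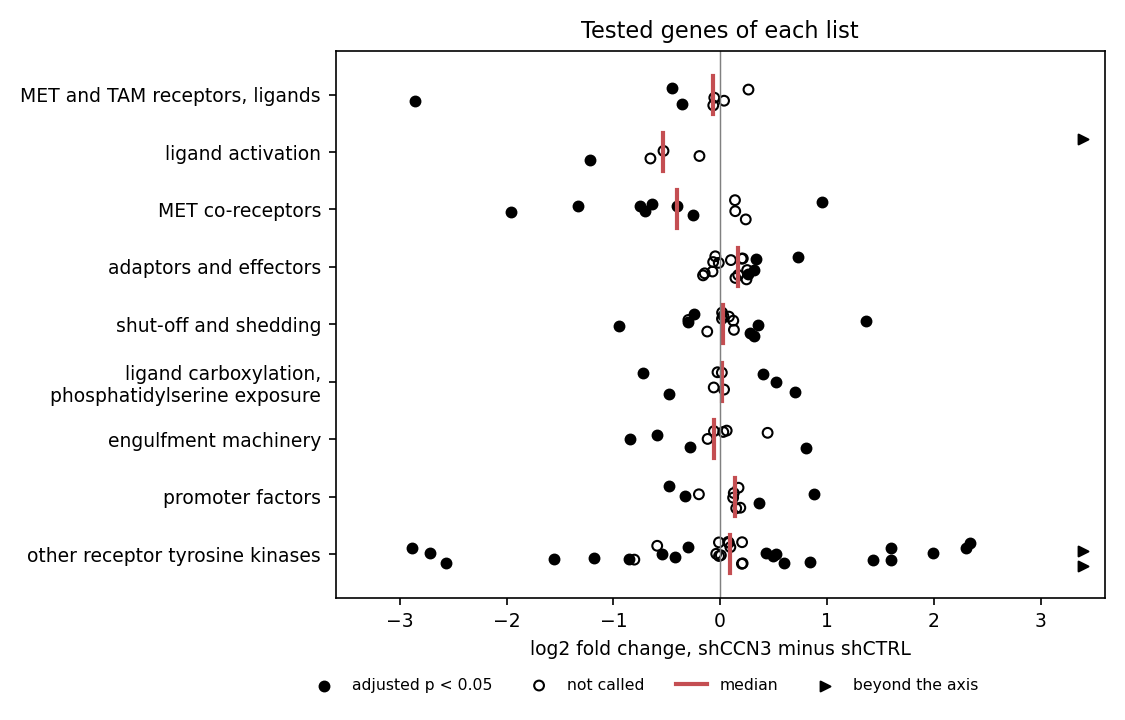
log2 fold change (shCCN3 minus shCTRL) of the tested genes of each list, filled where the adjusted p was under 0.05, with the median as a red bar and arrowheads for values beyond the axis. The MET co-receptors have a median of -0.41 with 7 of 11 genes lower, and the adaptors and effectors have 4 genes higher and none lower. Over all genes tested, 17.3% were lower and 16.2% higher.

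Among 53 other receptor tyrosine kinases, 34 were tested, 13 were higher and 9 lower, with a median log2 fold change of 0.09. Of the tested kinases 64.7% were called, against 33.4% of all genes tested. PDGFRA fell from 290 ± 15.8 CPM to 48.9 ± 4.62 CPM (-2.57, adjusted p = 9.44e-08, edgeR's quasi-likelihood test), a larger change than that of MET. EPHB6 and EPHB3 had -1.56 and -1.18, and EPHB1 and CSF1R, each under 5 CPM in both groups' means, had 2.30 and 2.33. EPHA5 rose from 0.979 ± 0.257 CPM to 3.91 ± 0.879 CPM (adjusted p = 0.000217). Of the 9 lower kinases, 4 lie on chromosome 7 with MET (EGFR, EPHB4, EPHB6 and LMTK2). These were all the kinases of this list that were tested on that chromosome. Less its median, EPHB6 was at -1.13, EGFR at -0.42, LMTK2 at -0.11 and EPHB4 at 0.13, where MET was at -0.02. Of the 13 higher kinases, 3 lie on chromosome 6 (DDR1, PTK7 and ROS1), where the median of all tested genes was 0.34.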

How the data were processed

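Poly(A) RNA of 3 shCTRL and 3 shCCN3 samples was made into libraries with a stranded kit (TruSeq Stranded mRNA) and sequenced on a NovaSeq instrument. The authors deposited raw read counts per gene, with NCBI Gene IDs and no normalization. The submitters' processing notes name bcl2fastq 2.20.0, Trimmomatic, HISAT2 2.1.0, StringTie 2.1.3d, DESeq2 and GRCh38. The annotation and the use of strand in counting are not given in the sources used here, so genes with overlapping or antisense partners are uncertain. COMETT, which overlaps MET, had 0 to 13 counts per library, and GAS6-AS1 had 0 to 8.

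Counts were normalized with TMM in edgeR 4.0.16 (R 4.3.3), filtered with filterByExpr by group (17419 genes left), and tested with glmQLFTest over the whole table, with Benjamini-Hochberg adjustment and a threshold of 0.05. The scripts were tested on simulated data. Single values were compared with exact permutation tests over libraries. RPKM used exon lengths of GENCODE release 29. Positions and promoters came from RefSeq on GRCh38.p14, and positions were found for 44661 of 46427 Gene IDs. All 8 genes matched.

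The 8 genes, the lists and the tests were chosen with earlier results of these data known. Genes named from a list are up to 2 in each direction (3 for the other kinases) with the largest change among those called with a mean of at least 1 CPM. MST1 was always named, and for MET and PROS1 the 3 genes of most similar profile. Other genes named from the lists, SERPINA5 and INSR among them, and the neighbours of MET and PROS1 were chosen after their values were seen.

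Alternatives were DESeq2's size factors, upper-quartile normalization, no filter, at least 10 counts in every library, DESeq2 1.42.0, limma-voom (limma 3.58.1), the replicate number as a block, each library left out, other gene lengths, and subtraction of chromosome or neighbour medians. The subtraction within each library was added after seeing the data. Libraries of 1 group were not copies of each other (chi-square per degree of freedom at least 7.13).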

Additional observations from a re-analysis of the deposited data

How the results depend on the processing

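MET and PROS1 kept their direction and their call under the 13 other fits (other normalizations, filters and tools, the block, and each library left out), with log2 fold changes of -0.50 to -0.34 and -0.44 to -0.31 and adjusted p of at most 0.0347 and 0.0363. Relative to its surroundings MET moved to -0.019 (chromosome median), 0.017 (24 nearest genes) and -0.0051 (the same within libraries). Against the 24 nearest genes AXL moved to 0.13 and TYRO3 to -0.12, and within libraries to 0.15 and -0.14. AXL ranged from -0.0043 to 0.076 with each library left out and turned below 0 without shCCN3 replicate 3, and it was called in none of the fits.

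MERTK was at -2.86 without a filter and -2.91 with DESeq2, not called in either, and at -3.07 to -2.25 in 5 fits without 1 library (adjusted p 0.0447 to 0.143). With limma-voom it was at -4.41 (adjusted p 0.00887). With at least 10 counts in every library it could not be fitted, and without shCCN3 replicate 3 no fold was fitted because the group was at 0. With that filter 1 ligand activation gene was called in place of 2. Adaptors and effectors had 3 to 9 genes called with each library left out, against 4. The cause of these changes was not tested.

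The replicate numbers were not found to pair the samples (correlations of deviations 0.09, -0.03 and -0.07). With the replicate block 4887 genes were called in place of 5825, and MET, PROS1 and MERTK kept their calls at -0.45, -0.36 and -3.08. Without shCCN3 replicate 2, 7229 genes were called. Depth limits MERTK and MST1R, which have under 100 counts in each library.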
